A study of Mus musculus with 10 samples.

Results

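Endoplasmic reticulum (ER) chaperones and folding enzymes were followed in whole brain through 10 genes chosen by symbol: Hspa5, Hsp90b1, Calr, Pdia3, Pdia4, Pdia6, Dnajb11, Sdf2l1, Manf and Herpud1. Each was represented by the brightest probe set that the platform annotation assigns to that symbol alone, and all 10 genes were found among the 19938 genes with a value. The Tg group held 5 mice that overexpress Glo1, the gene of the methylglyoxal-detoxifying enzyme glyoxalase 1, from a bacterial artificial chromosome transgene, and the WT group held 5 wild-type littermates. All were naive, group-housed adult males on a C57Bl/6J background, and RNA from the whole brain of each mouse was read on its own Affymetrix gene array, so every value averages over all brain regions and cell types. In such bulk RNA, fewer cells of a type and less RNA per cell cannot be told apart. The labels do not say which promoter or how many founder lines the transgene involved.

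The ER lumen holds a dedicated set of chaperones that fold secreted and membrane proteins, add and rearrange their disulfide bonds and keep unfinished chains from leaving. When unfolded chains accumulate, the sensors ATF6, IRE1 and PERK start the unfolded protein response, in which ATF6 and the spliced form of XBP1 raise the chaperone genes, while PERK acts through ATF4 on amino acid and redox genes. In brain, neurons, choroid plexus and other secretory cells depend on this machinery, and the chaperone mRNAs are present in most cell types. The labels were checked on Glo1 itself, whose level in Tg was 2.85 times that in WT (interval of 95% from 2.47 to 3.27, limma adjusted p = 3.50e-05).

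The 10 genes varied strongly between individual mice and showed no detectable difference between the genotypes. Tg replicate 4, Tg replicate 5 and WT replicate 5 gave the 3 highest values of all 10 arrays for each of the 10 genes. Among all genes with a value, 1.62% had these 3 arrays as their 3 highest, and 3.41% had them as their 3 lowest, as did 0 of the 10. The 3 arrays were picked out on these genes, so the 10 of 10 is a description with no test. The mean of the 10 genes, each set to its own mean over arrays, was 0.22 log2 units above average on Tg replicate 4, 0.40 on Tg replicate 5 and 0.29 on WT replicate 5. It lay between -0.16 and -0.12 on the other 3 Tg arrays and between -0.15 and -0.10 on the other 4 WT arrays. The sample numbers in the labels are 1397, 1399 and 1398 for the 3 high arrays and run from 1388 to 1396 for the other 7. What these numbers count is not given in the labels. With the number as a covariate in the Tg against WT fit, the standard error of Hspa5 was 0.119 in place of 0.196 log2 units and that of Sdf2l1 0.136 in place of 0.235. The members' median Tg minus WT difference was then 0.083 in place of 0.071, and 0 of the 10 passed (limma, lowest adjusted p = 0.9999). The arrays picked on these genes carry the 3 highest numbers, so the smaller standard errors restate that order and are no separate evidence. Standard errors of all genes were not set beside them.

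The promoters of these genes are shown because the members moved together and because the ER stress response element (ERSE) is the textbook site of this gene group: NF-Y binds its CCAAT end and ATF6 or XBP1 its CCACG end. RefSeq promoter windows of assembly GRCm38.p6, from 250 bases before to 50 bases after each start, were at hand for 9 of the 10 genes, all but Manf. Both strands were searched for CCAAT, 9 free bases and CCACG. It was found in 4 of the 9 promoters, those of Hspa5, Hsp90b1, Calr and Pdia6, against 0.119% of all 32851 promoters in the table. Without the last letter (CCAC in place of CCACG, which includes every full match) 7 of the 9 held it, against 0.365% of all promoters, with Pdia3, Pdia4 and Herpud1 joining. The second element, ERSE-II, which is ATTGG, 1 free base and CCACG, was found in the windows of Herpud1 and Dnajb11 and in 0.0365% of all promoters. The UPRE core TGACGTGG was found in 0 of the 9 and in 0.676% of all promoters. Sdf2l1 held none of these letters in its window. Among the 15614 measured genes with a window, 0.134% held the ERSE and 0.455% the ERSE without its last letter. The shares were 0.0576% for ERSE-II and 0.916% for the UPRE core. The ERSE was searched because it is known from this gene group, so its share among the members is a description with no test. A match is a run of letters, and binding was not measured.

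The last 160 bases before the start of Hspa5 (chr2:34771930-34772089, plus strand) follow, with the ERSE in capitals.
Hspa5: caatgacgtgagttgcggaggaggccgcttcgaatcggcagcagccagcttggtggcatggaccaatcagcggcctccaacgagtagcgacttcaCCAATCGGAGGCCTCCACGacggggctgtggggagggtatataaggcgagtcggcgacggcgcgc

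The matching sites are set out next in the direction of the motif, with the fixed letters of the motif in capitals, so that the fixed ends can be compared with the free spacer. The first base of the Hspa5 site lies at -65 from the start (chr2:34772025-34772043) and that of the Pdia6 site at -98 (chr12:17266491-17266509). Hsp90b1 has a site starting at -212 (chr10:86705638-86705656) and, on the opposite strand, a site spanning -107 to -89 (chr10:86705533-86705551). The Calr site spans -162 to -144 on the opposite strand (chr8:84847075-84847093). The Herpud1 site of the second type starts at -52 (chr8:94386377-94386387), and that of Dnajb11 starts at 8 bases into the transcript (chr16:22857852-22857862).
Hspa5: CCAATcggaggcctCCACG
Hsp90b1 (first site): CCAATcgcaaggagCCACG
Hsp90b1 (second site): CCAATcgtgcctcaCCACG
Calr: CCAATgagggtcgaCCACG
Pdia6: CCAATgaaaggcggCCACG
Pdia3 (without the last letter): CCAATcggcggctgCCAC
Pdia4 (without the last letter): CCAATcacgggctgCCAC
Herpud1 (without the last letter): CCAATggatggcagCCAC
Herpud1 (second element): ATTGGgCCACG
Dnajb11 (second element): ATTGGcCCACG

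Hspa5 encodes BiP, the Hsp70 of the ER lumen and the usual readout of ER stress. On probe set 10471586 (chromosome 2) it read 11.31, 11.30, 11.31, 11.94 and 12.20 log2 units on Tg replicates 1 to 5, and 11.31, 11.36, 11.36, 11.35 and 11.999 on WT replicates 1 to 5. The 7 lower arrays of both genotypes lay within 0.062 log2 units of each other, and the lowest of the 3 high arrays stood 0.58 above them (1.49-fold). This was the widest such step of any gene with a value. Sdf2l1, a small lumenal protein found in complexes with ER J-domain chaperones, had the second widest step, 0.54. It read 8.73, 8.78, 8.92, 9.46 and 9.94 on Tg replicates 1 to 5, and 8.80, 8.88, 8.78, 8.90 and 9.61 on WT replicates 1 to 5. Its highest array, Tg replicate 5, was 2.31-fold above its lowest, Tg replicate 1, both of the same genotype.

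Hsp90b1 encodes GRP94, the Hsp90 of the ER. It read 11.52, 11.46, 11.46, 11.83 and 11.87 on Tg replicates 1 to 5, and 11.54, 11.50, 11.55, 11.49 and 11.79 on WT replicates 1 to 5. The 3 high arrays stood 0.24 above the rest. Dnajb11 encodes ERdj3, a J-domain partner of BiP, and showed a smaller step of 0.14, with 9.15, 9.09, 9.16, 9.37 and 9.45 on Tg replicates 1 to 5 and 9.10, 8.91, 9.16, 9.23 and 9.41 on WT replicates 1 to 5. Its lowest value was on WT replicate 2. Manf, a secreted and ER-resident factor that binds BiP and protects neurons, read 9.02, 8.998, 8.96, 9.29 and 9.40 on Tg replicates 1 to 5, and 8.97, 9.08, 9.05, 8.99 and 9.44 on WT replicates 1 to 5. Its highest array was WT replicate 5.

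The protein disulfide isomerases form and shuffle disulfide bonds. Pdia4 (ERp72) had the third widest step of all genes, 0.39: it read 10.20, 10.10, 10.20, 10.64 and 10.87 on Tg replicates 1 to 5, and 10.22, 10.18, 10.20, 10.25 and 10.70 on WT replicates 1 to 5. A second, dimmer probe set annotated to Pdia4 read between 6.15 and 6.80 in Tg and between 6.35 and 6.88 in WT. It did not single out the 3 arrays, with its highest value on WT replicate 2. Pdia6 (P5) read 9.41, 9.48, 9.44, 9.83 and 10.16 on Tg replicates 1 to 5, and 9.42, 9.50, 9.54, 9.48 and 9.90 on WT replicates 1 to 5.

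Calr encodes calreticulin, the calcium-binding lectin that holds glycoproteins for folding. It read 11.72, 11.68, 11.81, 12.003 and 12.05 on Tg replicates 1 to 5, and 11.67, 11.76, 11.77, 11.77 and 11.9997 on WT replicates 1 to 5, with a step of 0.19. Pdia3 encodes ERp57, the isomerase that works with calreticulin. It read 11.24, 11.24, 11.19, 11.40 and 11.47 on Tg replicates 1 to 5, and 11.16, 11.06, 11.23, 11.31 and 11.47 on WT replicates 1 to 5. Its step was 0.090, narrower than the spread of 0.25 among the other 7 arrays.

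Herpud1 encodes HERP, a membrane protein of ER-associated degradation and the member that is no lumenal chaperone. It read 10.64, 10.73, 10.74, 10.89 and 11.02 on Tg replicates 1 to 5, and 10.73, 10.87, 10.74, 10.66 and 10.97 on WT replicates 1 to 5. Its 3 highest arrays were again the same, but by 0.016 log2 units over WT replicate 2, so its order rests on a difference far below the spread of the other arrays (0.23).

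**Figure D1:**
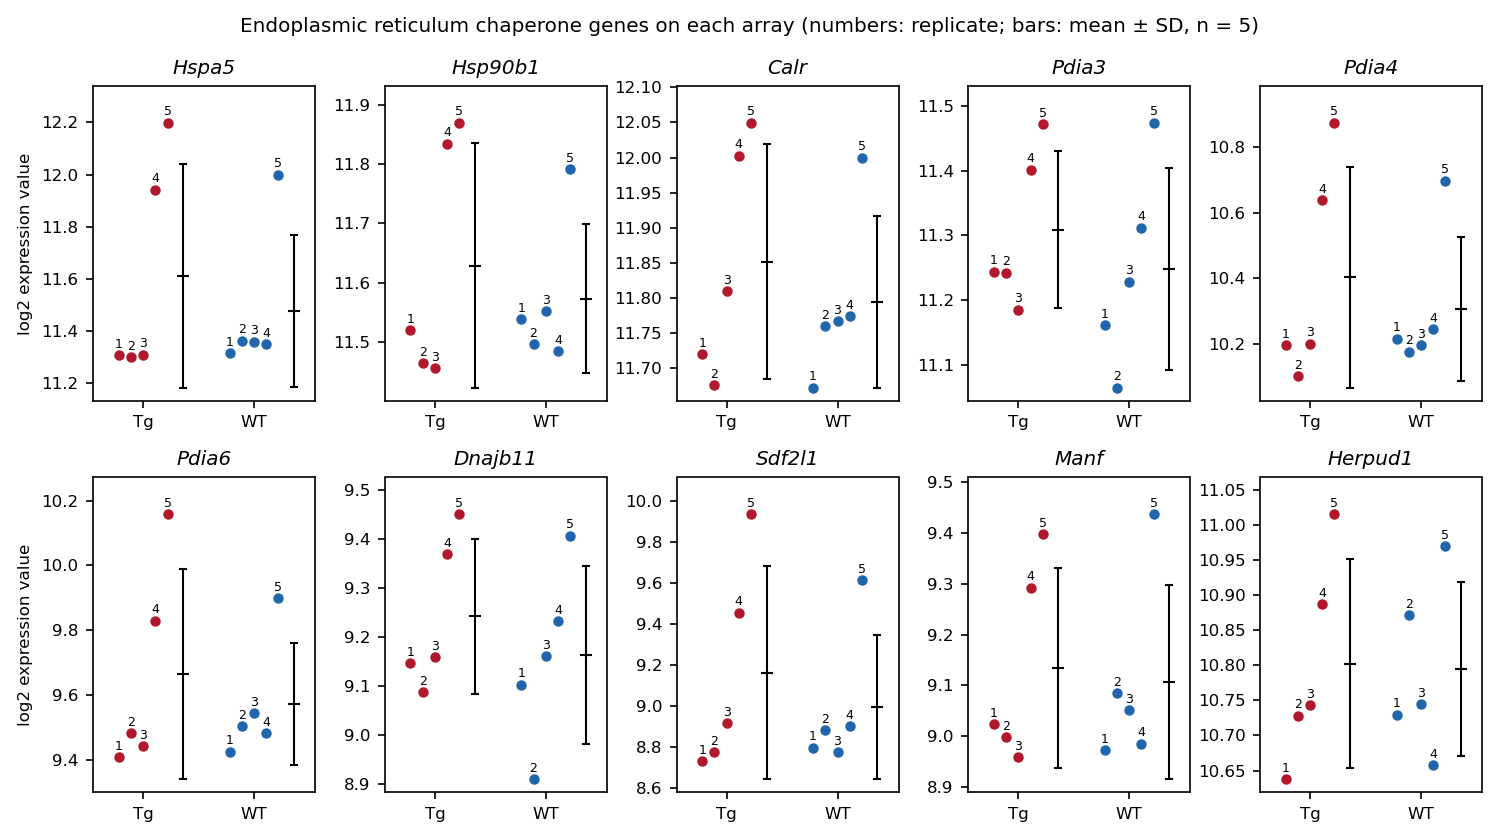
Log2 expression value (y axis, a separate scale per gene) of the 10 members on each array, with Tg on the left and WT on the right of each panel; numbers give the replicate and bars the mean ± SD of 5 arrays. Tg replicates 4 and 5 and WT replicate 5 are the 3 highest points in every panel, widely so for Hspa5 (step 0.58) and barely for Herpud1 (0.016).

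The study's comparison asked whether Tg and WT brain differ. Of the 10 members, 0 passed the threshold (limma, Benjamini-Hochberg adjusted over 28944 probe sets), where 0.0345% of all probe sets passed. At an unadjusted p under 0.05, 0 of the 10 passed against 2.21% of all probe sets. The adjusted p was 0.9998 for every member, and Tg and WT values overlapped for all 10, while 0.471% of all genes had non-overlapping groups. Mean values were higher in Tg for 10 of 10 members, against 47.2% of all genes, with a median difference of 0.071 log2 units beside -0.003 over all genes. The 3 high arrays include 2 Tg and 1 WT.

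Sdf2l1 had the largest mean difference, at 9.16 ± 0.52 log2 units in Tg and 8.99 ± 0.35 in WT (SD, n = 5 each), or 0.17 with a 95% interval from -0.35 to 0.68. Hspa5 averaged 11.61 ± 0.43 in Tg and 11.48 ± 0.29 in WT (SD, n = 5 each), a difference of 0.13 (-0.29 to 0.56). In folds, the interval for Hspa5 reached from 0.816 to 1.48, so 5 against 5 arrays could not resolve a change smaller than this. Pdia4 differed by 0.10 (-0.24 to 0.43), Pdia6 by 0.09 (-0.22 to 0.41) and Dnajb11 by 0.08 (-0.13 to 0.29). Calr and Hsp90b1 both differed by 0.06, Pdia3 likewise by 0.06, Manf by 0.03 and Herpud1 by 0.01. Exact two-sided permutation tests of the single genes gave unadjusted p values between 0.5 and 0.937, where 5 against 5 arrays could reach 0.00794.

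Each array was left out in turn. Without Tg replicate 5 the differences of 7 of the 10 members turned negative, with a median of -0.017. Without Tg replicate 4, 8 of the 10 stayed positive with a median of 0.037. Without WT replicate 5 all 10 stayed positive and the median was 0.13. Without WT replicate 2, whose cerebellar markers stood apart, all 10 stayed positive with a median of 0.043. With Tg replicates 4 and 5 and WT replicate 5 all left out, 3 Tg and 4 WT arrays remained, and 8 of 10 members were lower in Tg, with a median of -0.035. Hspa5 then differed by -0.04 with an interval of -0.15 to 0.06, in place of -0.29 to 0.56. In each of these fits 0 members passed (limma). This last fit was chosen after the values were seen.

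**Figure D2:**
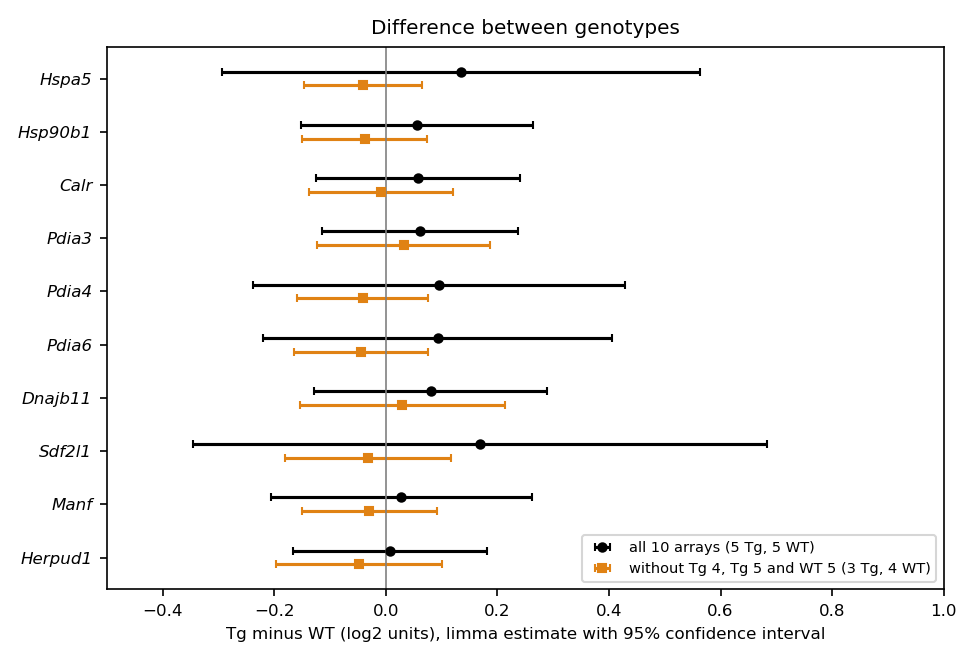
Tg minus WT difference of each member in log2 units (x axis) with its 95% confidence interval from limma, over all 10 arrays (circles) and without Tg replicates 4 and 5 and WT replicate 5 (squares). All circles lie above 0 and 8 of 10 squares below it, and every interval includes 0.

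The variance of the members lay within the genotypes. The share of variance over the 10 arrays that fell between Tg and WT had a median of 3.87% over the members (0.0966% for Herpud1 to 6.49% for Dnajb11), beside a median of 4.32% over all genes. For Glo1 that share was 96.3%. The within-group SD had a median of 0.18 log2 units over the members and 0.097 over all genes. Sdf2l1 (0.44), Hspa5 (0.37), Pdia4 (0.28) and Pdia6 (0.26) were more variable within groups than at least 98.8% of all genes. Herpud1 (0.14) and Pdia3 (0.14) lay at 77.9% and 79.2%. Without the 3 high arrays the median within-group SD of the members was 0.051. Those arrays were picked on these genes, so this fall follows from the choice. The SD of all genes without them was not taken, and the 0.097 above is over all 10 arrays.

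Over the 10 arrays the members followed one another closely. The Pearson correlation r of the 45 pairs had a median of 0.902, from 0.553 for Dnajb11 with Herpud1 to 0.992 for Hspa5 with Pdia4. The mean over the pairs was 0.891, beside 0.0316 over all pairs of genes with a value. Removing each genotype's mean left the median at 0.905. With the other 9 members averaged, Hspa5 correlated at 0.997, Pdia4 at 0.992 and Sdf2l1 at 0.984, while Pdia3 (0.867), Dnajb11 (0.859) and Herpud1 (0.856) followed least closely. All pairs share the same arrays, and the arrays fall into 3 high and 7 low ones, so these coefficients describe that separation.

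Hspa5 was used as the anchor for a test. Its correlation with the other 9 members over 10 arrays ranged from 0.856 (Dnajb11) to 0.992 (Pdia4), with Spearman's rho from 0.503 (Pdia3) to 0.903 (Pdia6). Unadjusted, the permutation p of these r values lay between 4.0e-05 (Pdia6) and 0.0034 (Pdia3). That of rho lay between 0.00086 (Pdia6) and 0.143 (Pdia3). Adjusted over 19937 genes, the permutation p of r lay between 0.199 and 0.239 and that of rho between 0.785 and 0.797, so none of the 9 passed. How many of all genes reached such unadjusted values over 10 arrays was not taken, so they have no background here. Without the 2 arrays farthest from the median of Hspa5, Tg replicate 5 and WT replicate 5, r ranged from 0.660 (Herpud1) to 0.972 (Pdia4).

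Within the 7 lower arrays the median r of the 45 pairs was 0.150, with 26 pairs above 0, and the mean was 0.101 beside 0.0413 over all pairs of genes. Of the 9 members, 7 correlated positively with Hspa5, against 61.5% of all genes. Pdia6 (r = 0.759, rho = 0.714) and Manf (r = 0.656, rho = 0.464) were the closest. By two-sided exact permutation over these 7 arrays, 0 of 9 reached an unadjusted p under 0.05, where 3.65% of all genes did. The lowest p was 0.0659 (r of Pdia6), and the adjusted p of each member was 1. These 7 arrays were kept because the members were low there, and Hspa5 spanned only 0.062 log2 units among them. The test therefore cannot decide whether the members vary together among these mice.

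Among the 7, the most extreme of the 45 pairs joined Pdia3, Dnajb11 and Herpud1, which are named as extremes with no test. Pdia3 and Dnajb11 correlated with each other at 0.884, the highest of the pairs. Each ran opposite to Herpud1 (r = -0.877, the lowest of the pairs, and -0.850). On WT replicate 2, Pdia3 and Dnajb11 had their lowest values (11.06 and 8.91) and Herpud1 the highest of the 7 (10.87). That array also had the lowest mean of 16 cerebellar markers, 8.39 log2 units, beside 10.21 to 10.30 in Tg and 10.36 to 10.46 on the other WT arrays. Without it, on 6 arrays, the coefficients were 0.645 for Pdia3 with Dnajb11, -0.649 for Pdia3 with Herpud1 and -0.454 for Dnajb11 with Herpud1. The part of the cerebellar share in these values was not tested.

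**Figure D3:**
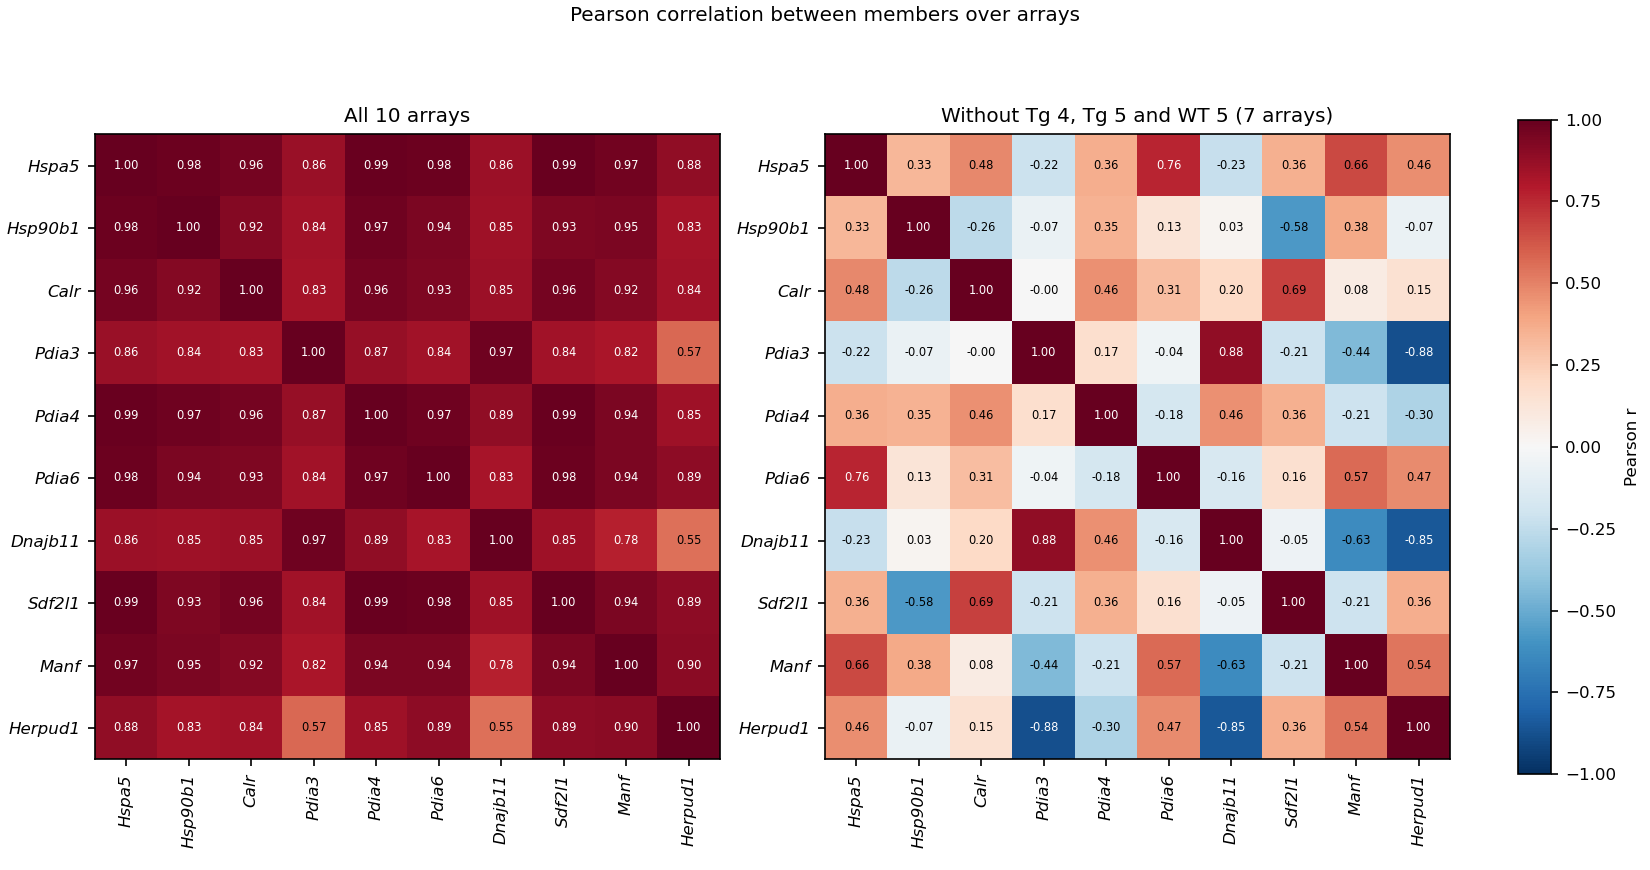
Pearson r between each pair of members (rows and columns), colour and number from -1 to 1, over all 10 arrays (left) and over the 7 arrays other than Tg replicates 4 and 5 and WT replicate 5 (right). All 45 pairs are positive on the left (median 0.902), and on the right they scatter around a median of 0.150. The extremes on the right, Pdia3 with Dnajb11 and Pdia3 with Herpud1, include WT replicate 2 and were weaker without it.

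The wider unfolded protein response was followed through lists of other genes. None of these lists held a gene past the threshold between Tg and WT (limma, adjusted over all probe sets). At an unadjusted p under 0.05 (limma) there was 1 gene among the 163 on these lists, against 2.21% of all probe sets. This was Cdnf, the sister factor of Manf, which differed by -0.09. It was dim, at 6.80 to 6.93 in Tg and 6.92 to 6.98 in WT, beside a median level of 8.26 over all genes. Of 43 other ER folding genes, 3 had the same 3 highest arrays as the members (6.98%, against 1.62% of all genes): Hyou1, the nucleotide exchange factor of BiP, Creld2, a secreted ER stress protein, and Dnajc3, a J-domain co-chaperone also known as p58IPK. Creld2 read 9.05, 9.24, 9.10, 9.52 and 9.79 on Tg replicates 1 to 5, and 9.07, 9.29, 9.16, 9.14 and 9.63 on WT replicates 1 to 5. Its 3 high arrays stood 0.24 above the others. The abundant chaperone Canx, calnexin, read between 12.91 and 13.02 in Tg and between 12.83 and 13.01 in WT, and did not have these 3 arrays highest. Neither did Ppib and Selenof, the next brightest of that list. The mean of the list correlated with the member profile at 0.473, and its median Tg minus WT difference was -0.007.

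Among 41 genes of ER-associated degradation, translocation and glycosylation, 3 had the 3 arrays highest (7.32%): Sel1l, the scaffold of the HRD1 ubiquitin ligase, Ube2g2, a ubiquitin-conjugating enzyme, and Stt3b, a catalytic oligosaccharyltransferase subunit. Stt3b was between 10.60 and 10.82 in Tg and between 10.52 and 10.77 in WT, with a step of 0.13. The brightest members of that list, Dad1, Ube2j1 and Ssr2, did not share the order. Sec11a, a signal peptidase subunit, had the lowest p of the list, with a difference of -0.10. The median difference of the list was 0.002.

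Of 21 sensors and transducers, 2 had the 3 arrays highest (9.52%): Xbp1, the transcription factor activated by IRE1, and Nfya, a subunit of NF-Y. Xbp1 read 10.95, 10.81, 10.97, 11.34 and 11.51 on Tg replicates 1 to 5, and 10.98, 10.78, 10.98, 10.91 and 11.48 on WT replicates 1 to 5. Its step of 0.36 was larger than that of 7 of the 10 members. Splicing of Xbp1 is not resolved by these probe sets. Of the other bright genes of that list, Tmbim6 correlated with the member profile at -0.384 and Gtf2i at 0.465. Creb3l4, dim in brain, had the lowest p, with a difference of 0.07 and values from 5.82 to 5.87 in Tg and from 5.70 to 5.86 in WT.

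Of 34 PERK and ATF4 targets, 2 had the 3 arrays highest (5.88%): Ddit3, the transcription factor CHOP, and Aldh18a1, of proline synthesis, by steps of 0.025 and 0.016. Ddit3 read 8.67, 8.80, 8.84, 8.87 and 8.93 on Tg replicates 1 to 5, and 8.75, 8.81, 8.80, 8.74 and 8.98 on WT replicates 1 to 5. The bright targets Slc3a2, Asns and Nars correlated with the member profile at -0.320, 0.402 and 0.248. Trib3, a stress-induced pseudokinase, had the lowest p, with a difference of 0.12 and values from 7.66 to 7.86 in Tg and from 7.53 to 7.79 in WT. The list mean lay between 9.08 and 9.15 in Tg and between 9.07 and 9.16 in WT, highest on WT replicate 2. Whether the lists differ from one another in this was not tested.

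Of 24 cytosolic heat shock genes, 11 had the 3 arrays highest (45.8%, against 1.62% of all genes). Among them were the inducible Hsp70 gene Hspa1a, the small heat shock proteins Hspb1 and Cryab, the J-domain gene Dnajb1, Hsp90aa1 and the constitutive Hspa8. Hspb1 read 8.50, 8.59, 8.74, 9.17 and 9.32 on Tg replicates 1 to 5, and 8.63, 8.79, 8.57, 8.52 and 9.20 on WT replicates 1 to 5, a step of 0.38. Hspa1a is uncertain, because it shares sequence with its near-identical copy Hspa1b. It read 8.51, 8.62, 8.56, 8.83 and 9.03 on Tg replicates 1 to 5 and 8.57, 8.53, 8.56, 8.62 and 8.77 on WT replicates 1 to 5. Hspa8, at 13.51 to 13.63 in Tg and 13.38 to 13.65 in WT, had a step of 0.037, and Hsp90aa1 had one of 0.015. Bag3, a co-chaperone, had the lowest p of the list, with a difference of 0.10. The list mean correlated with the member profile at 0.931, and its median Tg minus WT difference was 0.038.

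**Figure D4:**
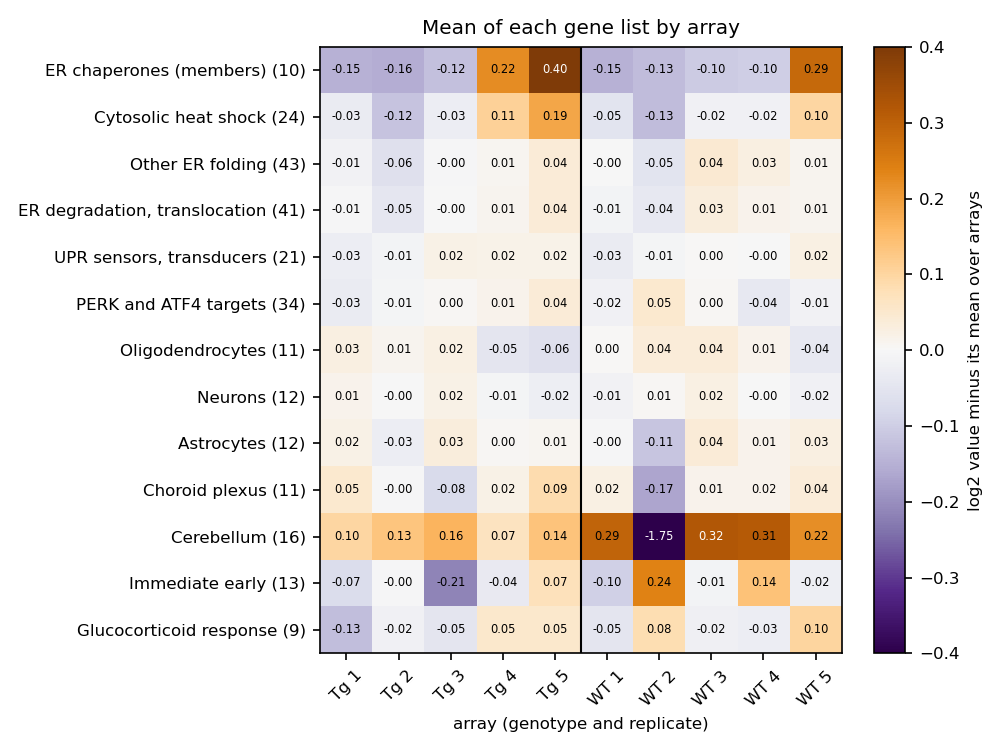
Mean of the members, the 5 pathway lists and some of the 17 marker lists by array (columns, Tg left of WT). Values are log2 minus the mean over arrays, with the number of genes in parentheses, and colours saturate at 0.4 in either direction. The pituitary list, high on Tg 2 and WT 2, is among those not drawn. ER chaperones and cytosolic heat shock genes are high on Tg 4, Tg 5 and WT 5, whereas the cerebellar list is low on WT 2 at -1.75.

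Genes outside the list were ranked by their correlation with the member profile over the 10 arrays, among 12899 genes in the upper 60% of probe sets by level. The 10 closest were Galnt9 (r = 0.980), P4ha1 (0.977), Sgsm1 (0.966), Xbp1 (0.965), Jmjd6 (0.963), Creld2 (0.957), Homer1 (0.955), Hspb1 (0.950), Trim9 (0.948) and Hspa1a (0.946). Over all genes other than members, 0.186% had an r above 0.9. Xbp1 and Creld2 belong to the unfolded protein response, Hspb1 and Hspa1a to the heat shock response, and P4ha1 encodes a prolyl hydroxylase subunit that works on collagen in the ER lumen. P4ha1 read 9.53, 9.56, 9.47, 9.94 and 10.25 on Tg replicates 1 to 5, and 9.56, 9.61, 9.61, 9.61 and 9.96 on WT replicates 1 to 5. Homer1, a postsynaptic scaffold with an activity-induced short form, was between 10.20 and 10.70 in Tg and between 10.19 and 10.62 in WT. Of these 10 genes, 1 had an ERSE in its promoter window, Creld2, which holds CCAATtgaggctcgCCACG on the opposite strand at chr15:88819520-88819538.

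The 5 most opposite genes were Opalin (r = -0.984), Tmem175 (-0.976), Mfsd4a (-0.975), Natd1 (-0.966) and Pla2g4e (-0.959). Opalin, a membrane protein of myelinating oligodendrocytes, read 9.52, 9.43, 9.48, 9.02 and 8.70 on Tg replicates 1 to 5, and 9.47, 9.51, 9.50, 9.54 and 8.92 on WT replicates 1 to 5. Tmem175, a lysosomal potassium channel, spanned a narrower range, 9.50 to 9.69 in Tg and 9.51 to 9.68 in WT. Cirbp, a cold-inducible RNA-binding protein chosen after its values were seen, was also low on the 3 arrays: it read 10.24, 10.24, 10.34, 9.85 and 9.62 on Tg replicates 1 to 5, and 10.39, 10.30, 10.37, 10.41 and 9.93 on WT replicates 1 to 5. Rbm3, its cold-inducible relative and likewise chosen afterwards, read 11.47 and 11.50 on Tg replicates 4 and 5 and 11.66 on WT replicate 5. On the other arrays Rbm3 lay between 11.98 and 12.18 in Tg and between 11.66 and 12.31 in WT, where WT replicate 2 was as low as WT replicate 5.

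**Figure D5:**
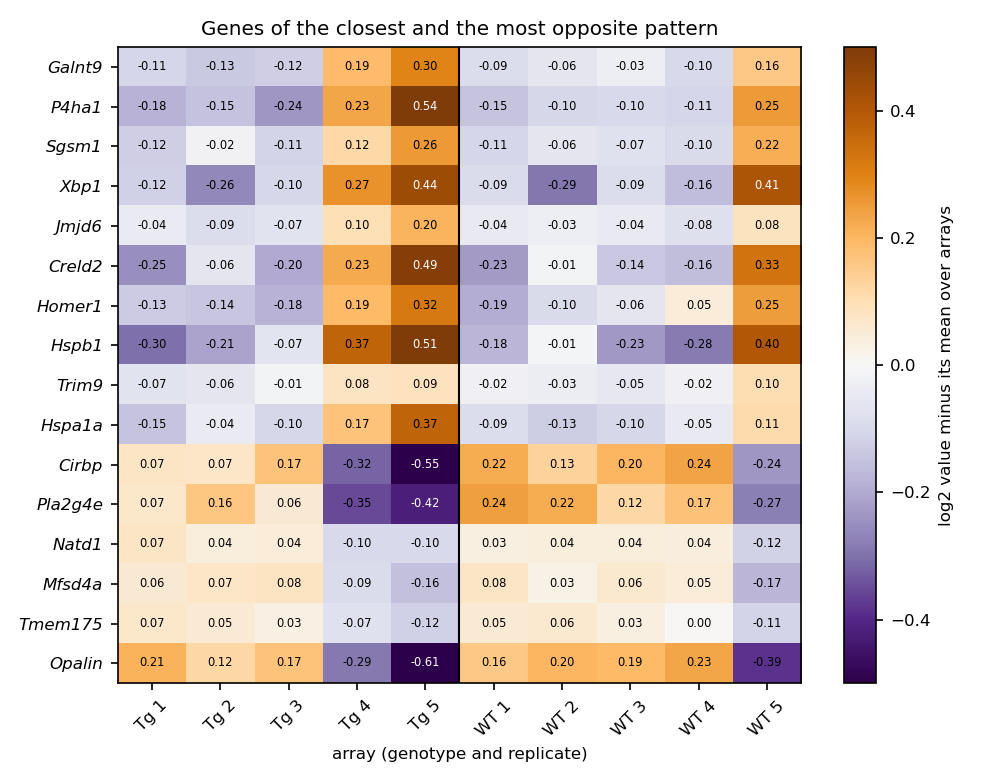
Log2 value minus its mean over arrays (colour and number, saturating at 0.5) for the 10 genes closest to the member profile, the 5 most opposite and Cirbp, by array with Tg left of WT. The upper genes are high and the lower genes low on Tg 4, Tg 5 and WT 5, in both genotypes.

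Among 15614 measured genes with a promoter window, 1.63% had the 3 arrays highest. Of 21 measured genes with an ERSE in the window, 7 had the 3 arrays highest (33.3%), and these 7 were 2.75% of the 255 such genes with a promoter window. Of the 7, 4 were the members Hspa5, Hsp90b1, Calr and Pdia6. The 3 arrays were picked out on the members, so the 33.3% is no test. Without the members, 3 of 17 remained (17.6%): Creld2, Dnajc3 and Zfp57. For the ERSE without its last letter the count outside the members was 3 of 64 (4.69%), for ERSE-II 0 of 7, and for the UPRE core 2 of 143 (1.4%). The other ER folding list held 4 genes with an ERSE among 36 with a window, Canx, Ero1b, Creld2 and Dnajc3, and of these Canx and Ero1b did not have the 3 arrays highest. The degradation and translocation list held 2 among 32, Syvn1 and Derl3, neither of which had the 3 arrays highest. In the sensor, PERK and ATF4, and heat shock lists 0 genes held it.

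Markers of other cell types and regions were read beside the members. Of 190 genes on 17 marker lists, 5 had the 3 arrays highest (2.63%, against 1.62% of all genes) and 9 had them lowest (4.74%, against 3.41%). List means correlated with the member profile beyond 0.6 for oligodendrocytes (r = -0.928), neurons (-0.686) and the glucocorticoid response (0.657). The median r of their single genes was weaker, at -0.322, -0.175 and 0.501. Oligodendrocyte markers averaged 10.57 to 10.66 in Tg and 10.59 to 10.67 in WT, lowest on the 3 high arrays, with Opalin and Sox10 low there. Opalin, the most opposite gene above, is 1 of the 11 genes in this mean and spanned 0.84 log2 units over the arrays. Of the 11, 2 had the 3 arrays lowest. The mean without Opalin was not taken. The list's r and its low values on the 3 arrays therefore cannot be read as a trait of the markers as a set. The abundant myelin genes Mbp and Cnp correlated at -0.037 and -0.608. Neuronal markers averaged 12.15 to 12.19 in both Tg and WT, with Snap25 at -0.303 and Camk2a at -0.337. In the glucocorticoid list, which averaged 8.94 to 9.11 in Tg and 9.01 to 9.17 in WT, the brightest genes Zbtb16 and Per1 correlated at 0.501 and -0.079.

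Of 15 circadian clock genes, 3 had the 3 arrays lowest, against 3.41% of all genes: the clock outputs and repressors Nr1d1, Dbp and Ciart. The 3 arrays were highest for 1, Arntl, which encodes the activator BMAL1, against 1.62% of all genes. These 4 were chosen after their values were seen. Dbp read 10.30, 10.21, 10.30, 10.04 and 9.98 on Tg replicates 1 to 5, and 10.39, 10.23, 10.30, 10.32 and 10.17 on WT replicates 1 to 5. Ciart read 9.97, 10.23, 9.98, 9.74 and 9.71 on Tg replicates 1 to 5, and 10.17, 10.04, 10.30, 10.36 and 9.83 on WT replicates 1 to 5. With the member profile Dbp correlated at -0.871, Ciart at -0.792, Nr1d1 at -0.731 and Arntl at 0.678, and the mean of the list at -0.449. The median r of the 15 genes was -0.216. The list averaged 9.85 to 10.01 in Tg and 9.94 to 10.05 in WT. Set to its mean over arrays, it stood at -0.12 on Tg replicate 4, -0.04 on Tg replicate 5 and 0.015 on WT replicate 5. The list as a whole was thus not low on all 3 arrays.

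Choroid plexus markers averaged 8.83 to 8.99 in Tg and 8.74 to 8.94 in WT (r = 0.492), and pituitary markers were high on Tg replicate 2 (8.79) and WT replicate 2 (9.12), arrays where the members were low. Immediate early genes averaged 8.48 to 8.76 in Tg and 8.60 to 8.93 in WT (r = 0.089). The part of these lists in the members' values was not tested. Array medians lay between 7.95 and 8.05, with the 3 high arrays within the range of the others. The mean correlation with the other arrays was 0.996 for Tg replicate 4, 0.996 for Tg replicate 5 and 0.997 for WT replicate 5. It was lowest for WT replicate 2, at 0.992. This correlation of levels over all probe sets cannot show whether the 3 arrays differ in part of the genes. Of all genes, 1.62% had them as their 3 highest arrays and 3.41% as their 3 lowest.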

How the data were processed

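RNA from 10 whole brains, 5 Tg and 5 WT, was read on Affymetrix arrays. The authors deposited log2 values per probe set, and the submitters' processing notes name Expression Console 1.1.2 as the tool. How it was set to normalize is not given in the sources used here. Values ran from 3.28 to 14.7. Of 35556 rows, 6612 control rows (18.6%) were left out and 28944 probe sets were tested. The platform annotation gave 21789 probe sets 1 gene symbol, 1621 several and 5534 none; 21698 symbols were updated through RefSeq (GRCm38.p6). The number of arrays limits the precision. The labels call the mice biological replicates and littermates.

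Tg was compared with WT in limma 3.58.1 (R 4.3.3), with Benjamini-Hochberg adjustment over all probe sets and a threshold of 0.05. Single genes were tested by exact permutation and correlations by 100000 permutations, or all 5040 over 7 arrays (Python 3.11.15, SciPy 1.17.1, NumPy 2.4.6). The fit was tested on simulated data. Genes were named by rule: Glo1, the 10 members, in each of 5 pathway lists the gene of lowest p, the 3 brightest and the 2 of highest r with the member profile, the 10 closest and 5 most opposite genes, and the 2 brightest markers of each list with an r beyond 0.6. The other genes of the pathway lists and marker lists named in the text are those with the 3 high arrays highest or lowest, or with an ERSE; Zfp57 is named as 1 of 3 genes with both. Members and lists were chosen with earlier results of these data known. Of 395 list entries, 365 had a value.

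The labels do not say whether replicate numbers pair the samples. Same-numbered arrays had deviations correlated at 0.0066, 0.330, 0.453, -0.472 and 0.097. Different-numbered arrays were not set beside them, so these values cannot decide on a pairing. Alternatives were other normalizations, filters, variance models, array weights, covariates, probe set averages, a replicate block and each array left out.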

Additional observations from a re-analysis of the deposited data

Results flagged for a closer look

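In the WT group, replicate 5 lay far from the other 4 arrays for 6 members. Its gap to the nearest array, as a share of the whole WT range, was 0.93 for Hspa5, 0.868 for Pdia4, 0.848 for Sdf2l1, 0.782 for Hsp90b1, 0.76 for Manf and 0.747 for Pdia6, where 0.71 is the limit for 5 arrays. For the mean of the 10 members it was 0.886.

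The same array was highest in WT by this measure for P4ha1 (0.882), Sgsm1 (0.854), Trim9 (0.796), Galnt9 (0.737) and Xbp1 (0.713). It was lowest for Natd1 (0.953), Opalin (0.883), Mfsd4a (0.803) and Pla2g4e (0.759). In all, 16 of 52 groups examined passed the limit, where chance passes about 5%. These genes were chosen for following the members, so their number is no separate evidence. No Tg group examined passed; there 2 of the 5 arrays were high.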

How the results depend on the processing

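Under every alternative 0 members and 0 genes of the pathway lists passed the threshold (limma), with the lowest adjusted p of a member at 0.835, without WT replicate 2. With the replicate block 0 members passed and the median difference of the members was 0.071, so it changed no call. The standard error was then 0.0984 in place of 0.196 for Hspa5 and 0.0979 in place of 0.235 for Sdf2l1. Replicate 5 was high for these genes in both genotypes, so this fall restates those values and is no separate evidence. Median centring, quantile normalization and cyclic loess kept all 10 members higher in Tg. The filter to the upper 30% of probe sets removed 2 members. With the mean of all probe sets Pdia4 differed by -0.0132.

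With single arrays left out the Tg minus WT difference ranged from -0.0123 to 0.265 for Hspa5, -0.0041 to 0.111 for Hsp90b1, -0.0217 to 0.193 for Pdia4, -0.0305 to 0.175 for Pdia6, -0.0245 to 0.323 for Sdf2l1, -0.0379 to 0.111 for Manf and -0.0456 to 0.0513 for Herpud1. It stayed positive for Calr (0.0076 to 0.108), Pdia3 (0.0149 to 0.117) and Dnajb11 (0.0171 to 0.141). Highs came without WT replicate 5, and lows without Tg replicate 5, or for Pdia3 and Dnajb11 without WT replicate 2.

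Without Tg replicates 4 and 5 and WT replicate 5, a choice made after seeing the data, 6 probe sets passed in place of 10. The differences were then -0.041 for Hspa5, -0.0379 for Hsp90b1, -0.0079 for Calr, -0.0417 for Pdia4, -0.0448 for Pdia6, -0.0318 for Sdf2l1, -0.0299 for Manf and -0.0479 for Herpud1, with 0.0322 for Pdia3 and 0.0295 for Dnajb11. The median pairwise r fell to 0.150, against 0.902 over all arrays, and was 0.754 without Tg replicate 5 and WT replicate 5. The median r with Hspa5 was 0.363 in place of 0.967, and the median SD 0.0515 in place of 0.182. Fewer arrays remain in these fits, and the cause was not tested.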

Other observations

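The genes that follow are close to the members in function and were chosen after their values were seen; none had the 3 high arrays as its 3 highest. Dnajb9, the ER J-domain gene ERdj4, read 11.03, 10.52, 11.07, 10.99 and 11.01 on Tg replicates 1 to 5, and 10.98, 10.47, 11.02, 11.11 and 11.01 on WT replicates 1 to 5, lowest on replicate 2 of both genotypes (r with the member profile 0.286). Atf4 lay between 9.15 and 9.39 in Tg and between 9.26 and 9.46 in WT (r = 0.304). Derl3, of ER-associated degradation, read 8.05 and 7.997 on Tg replicates 4 and 5 and 7.93 on WT replicate 5, but also 7.96 on WT replicate 2 (r = 0.748). Hsph1, a cytosolic Hsp110, read 11.18 and 11.21 on Tg replicates 4 and 5 and 11.05 on WT replicate 5, with 11.11 on WT replicate 2 (r = 0.782).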
